A study of Mus musculus with 79 samples.

Results

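The genes described here are the nuclear genes for the subunits of respiratory complexes II, III, IV and V, measured by RNA-seq in mouse muscle after muscle-specific loss of RORα or of PER2. They were taken by symbol, from Sdha to Sdhd, and all names that begin with Uqcr, with Cox4 to Cox8 followed by a letter, or with Atp5, and 1 pseudogene symbol (Atp5l-ps1) was left out. This gave 44 of the 14253 genes in the RORA tables and 44 of the 12952 genes in the PER2 tables. In each set 4 belong to complex II, 8 to complex III, 15 to complex IV and 17 to complex V. The same gene was found in both sets in 42 cases, and 46 distinct genes were found in all. Atp5md and Atp5mpl stand under the names Usmg5 and 2010107E04Rik in the PER2 tables, and Atp5s and Atp5sl under Dmac2l and Dmac2 in the RORA tables, where the rule does not take them. Atp5s, Atp5sl and Cox7a2l carry the family names but are not subunits of the core enzymes: Cox7a2l is a factor that joins complexes III and IV.

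Muscle was taken from PER2 MKO mice (muscle-specific knockout of Per2), from RORA MKO mice (muscle-specific knockout of Rora) and from CTRL mice of each set, whose genotype is labelled WT. Collection was at zeitgeber time (ZT, hours after lights on) 0, 4, 8, 12, 16 and 20. There were 24 PER2 MKO libraries with 19 controls, and 18 RORA MKO libraries with 18 controls, with 3 or 4 mice in each genotype and ZT. The labels name neither the Cre driver nor the muscle, and the sources used here give neither the age nor the sex of the mice. All values come from 12 tables of the authors' own comparisons, 1 for each knockout and ZT, so depth per library is unknown, and libraries could not be compared with each other. A fold change here is the log2 of MKO over CTRL in the RORA set. For the PER2 set neither headers nor labels say which genotype is over which, and values are called positive or negative.

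The targeted gene Rora had a mean log2 fold change of -1.78 ± 0.15 in the RORA set (SD, n = 6 ZT). In the PER2 set the deposited log2 values of Per2 averaged 0.37 ± 0.29 (SD, n = 6 ZT), negative at ZT0 and positive at the other ZT, and the direction of the PER2 tables was not inferred from it. The 9 muscle fibre markers were among the strongest signals of the RORA tables, with mean normalized counts of at least 16155.

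The respiratory chain passes electrons from food to oxygen and stores the energy as a proton gradient across the inner mitochondrial membrane. Complex II (succinate dehydrogenase) feeds electrons from the citric acid cycle into ubiquinone, complex III (the cytochrome bc1 complex) hands them to cytochrome c, complex IV (cytochrome c oxidase) reduces oxygen, and complex V (ATP synthase) lets protons back through a rotor to make ATP. Most subunits are encoded in the nucleus, a few in mitochondrial DNA, and cytochrome c oxidase has several subunits with a separate form for heart and skeletal muscle.

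Promoter windows of RefSeq (build GRCm38.p6, 250 bases before to 50 bases after a gene's start) were at hand for 34 of the 46 genes, as 37 windows. The bases before the start are printed for 4 genes, chosen after their values were seen. Atp5g1 and Cox8b had the highest RORA means in complexes V and IV among genes with 1 window. Atp5g3 and Cox7b are the genes whose bases before the start hold TCAAGGTCA, the element of estrogen-related receptors, or TAGGTCA, an element that ROR receptors and their relatives bind. Capitals mark any match on either strand to these motifs or to AAGGTCA (a shorter element inside TCAAGGTCA), GCGCATGCG (NRF1), CCGGAAGT (ETS factors), ATGGCGGC (YY1), CACGTG (the E-box) or CCAAT.
Cox8b (chr7:140900447-140900696, minus strand): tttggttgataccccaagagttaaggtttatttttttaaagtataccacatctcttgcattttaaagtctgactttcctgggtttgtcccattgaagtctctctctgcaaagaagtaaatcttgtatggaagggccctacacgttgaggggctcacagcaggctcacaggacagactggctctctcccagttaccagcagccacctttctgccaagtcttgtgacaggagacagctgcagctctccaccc
Atp5g1 (chr11:96075632-96075881, minus strand): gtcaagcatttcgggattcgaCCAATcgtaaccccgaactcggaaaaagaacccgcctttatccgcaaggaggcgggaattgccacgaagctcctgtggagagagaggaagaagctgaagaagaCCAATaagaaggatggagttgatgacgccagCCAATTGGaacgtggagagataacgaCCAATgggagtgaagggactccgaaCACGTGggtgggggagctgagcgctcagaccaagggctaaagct
Atp5g3 (chr2:73911327-73911576, minus strand): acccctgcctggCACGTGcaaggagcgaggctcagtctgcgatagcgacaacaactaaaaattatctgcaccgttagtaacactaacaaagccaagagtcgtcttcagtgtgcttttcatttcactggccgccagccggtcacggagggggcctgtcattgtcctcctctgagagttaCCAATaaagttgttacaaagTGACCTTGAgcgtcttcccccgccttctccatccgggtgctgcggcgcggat
Cox7b (chrX:106015450-106015699, plus strand): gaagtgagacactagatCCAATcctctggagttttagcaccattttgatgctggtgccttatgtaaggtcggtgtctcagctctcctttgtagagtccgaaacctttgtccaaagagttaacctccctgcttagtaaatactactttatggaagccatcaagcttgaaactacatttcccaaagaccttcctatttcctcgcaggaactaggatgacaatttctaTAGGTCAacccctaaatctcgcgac
Cox8b holds no match in this stretch. Atp5g1 holds an E-box and several CCAAT boxes, with 2 of opposite strand overlapping. In Atp5g3 the receptor element lies on the opposite strand, beginning 52 bases before the start, and in Cox7b TAGGTCA begins 25 bases before it. Over whole windows, TCAAGGTCA was in 5.41% of the 37 windows (Atp5g3 and Sdhd) and in 0.423% of the 32851 windows of the whole table. TAGGTCA was in 2.70% against 2.61%, and AAGGTCA in 13.5% against 4.72%. GCGCATGCG was in 16.2% of the members' windows against 1.75%, CCGGAAGT in 10.8% against 3.89% and ATGGCGGC in none against 2.24%. CACGTG was in 10.8% against 7.15% and CCAAT in 51.4% against 37.4%. These are letter matches, and binding was not measured.

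Loss of RORα went with higher RNA of most of these genes, by a small amount. Over the 6 ZT, 37 of the 44 rose in MKO muscle, where 18.9% of all genes did, and 1 fell (Cox6a2), where 19.3% of all genes did. The calls rest on an inverse-variance weighted mean of the 6 deposited fold changes, with a Benjamini-Hochberg adjusted p under 0.05 over all genes. The median of the 44 means was 0.17 on the log2 scale, or 12.5% more RNA, against 0.00 for all genes. The highest mean was that of Atp5g1, at 27.7% more RNA. In whole muscle, more cells rich in these RNAs and more of the RNA in each cell cannot be told apart. The deposited RORA fold changes look shrunken toward 0, so their size may be understated.

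The same direction was seen at each ZT. By the adjusted p in the authors' deposited tables, the number called higher was 34 at ZT0 (14.8% of all genes), 29 at ZT4 (14.8%) and 40 at ZT8 (13.7%). It was 35 at ZT12 (11.0%), 31 at ZT16 (10.4%) and 35 at ZT20 (16.6%). Cox6a2 was the 1 gene called lower, at ZT4, ZT12 and ZT20. The members' median log2 fold change was highest at ZT8, at 0.23, and lowest at ZT16, at 0.12, with 0.15 to 0.18 at the other ZT. The authors' deposited tables had 25 of the 44 genes called higher at all 6 ZT, against 3.95% of all genes. The 6 genes that did not pass on the mean (Atp5g2, Atp5l, Cox4i2, Cox6a1, Cox7a2l and Cox8a) are the 6 of lowest level, with mean normalized counts of 14.0 to 529, while the other 38 lie between 661 and 26813.

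**Figure D1:**
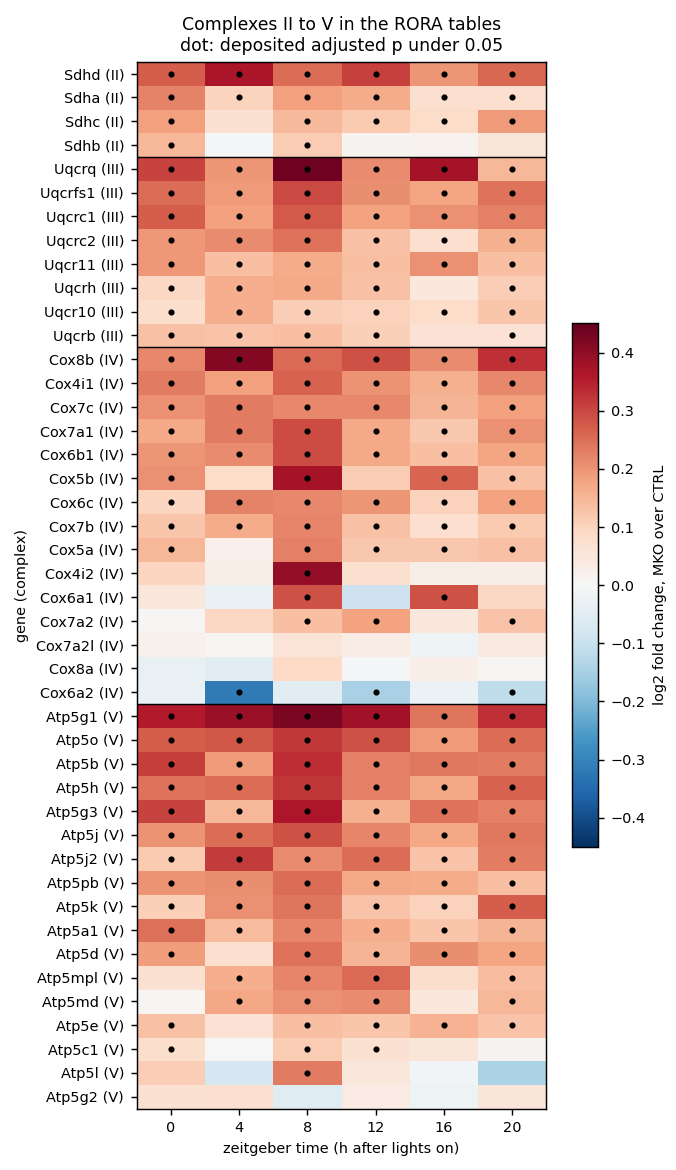
Log2 fold change of MKO over CTRL in the RORA tables for the 44 genes (rows, by complex and then by mean) at each ZT in hours (columns), red for higher and blue for lower in MKO. Black dots mark a deposited adjusted p under 0.05. Most rows are red across the 6 columns, and Cox6a2 is the row called lower, at 3 of the 6 ZT.

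In complex II all 4 subunits rose, with a membrane anchor at the top and an electron-carrying subunit at the bottom. Sdhd, one of the anchors that hold the enzyme in the membrane, stood in the authors' deposited tables at 0.27, 0.37, 0.25, 0.31, 0.20 and 0.26 from ZT0 to ZT20 in steps of 4 h. It was called at all 6 ZT, and its mean was 0.28 ± 0.06 (SD, n = 6 ZT; adjusted p 9.48e-76 for the normal test of the weighted mean). Sdha, the flavoprotein that oxidizes succinate, stood in the authors' deposited tables at 0.22, 0.10, 0.19, 0.17, 0.07 and 0.08 in the same order. Its fold change was highest at ZT0 and lowest at ZT16 and ZT20, though called at all 6. Sdhb, the iron-sulfur subunit between them, stood in the authors' deposited tables at 0.15, -0.01, 0.11, 0.01, 0.02 and 0.06, and was called at ZT0 and ZT8. Its mean of 0.06 ± 0.06 (SD, n = 6 ZT) had an adjusted p of 0.00149 by the normal test, and the call was lost without ZT0. The other anchor, Sdhc, rose by 0.13 ± 0.05 (SD, n = 6 ZT). The members of this one enzyme thus ranged from 0.06 to 0.28.

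In complex III all 8 genes rose, from 0.10 for Uqcrb to 0.28 for Uqcrq. Uqcrq, a small subunit that sits near the cytochrome b core, stood in the authors' deposited tables at 0.30, 0.20, 0.44, 0.21, 0.38 and 0.15 from ZT0 to ZT20. It was high at ZT8 and ZT16 and low at ZT20, with a mean of 0.28 ± 0.11 (SD, n = 6 ZT). Uqcrfs1, the Rieske iron-sulfur protein that passes electrons on toward cytochrome c, rose by 0.23 ± 0.04 and the core subunit Uqcrc1 by 0.22 ± 0.04 (SD, n = 6 ZT). The other core subunit, Uqcrc2, stood in the authors' deposited tables at 0.20, 0.21, 0.24, 0.13, 0.07 and 0.16, lowest at ZT16. Its mean was 0.17 ± 0.06 (SD, n = 6 ZT). Uqcrb, which binds near the quinone site, stood in the authors' deposited tables at 0.13, 0.13, 0.14, 0.11, 0.06 and 0.07, and was called at all ZT but ZT16. The remaining small subunits, the hinge protein Uqcrh, Uqcr10 and Uqcr11, rose by 0.12, 0.11 and 0.16. Cyc1, the cytochrome c1 of this complex, and its partner cytochrome c, Cycs, lie outside the naming rule and rose by 0.24 ± 0.05 and 0.10 ± 0.06 (SD, n = 6 ZT).

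Complex IV was the most mixed of the 4: 10 genes rose, 1 fell and 4 did not pass. Cox4i1, the main form of a large regulatory subunit, rose by 0.21 ± 0.04, and the small subunits Cox7c and Cox6b1 by 0.20 ± 0.03 and 0.20 ± 0.05 (SD, n = 6 ZT). Cox5a, a matrix-side subunit, stood in the authors' deposited tables at 0.15, 0.02, 0.23, 0.12, 0.12 and 0.13 from ZT0 to ZT20. It was called at all ZT except ZT4, where it was close to 0. Its neighbour Cox5b rose by 0.19 ± 0.11, Cox6c by 0.17 ± 0.06 and Cox7b by 0.14 ± 0.05 (SD, n = 6 ZT). Cox6b1, which faces the space between the membranes, stood in the authors' deposited tables at 0.20, 0.21, 0.29, 0.17, 0.13 and 0.18. It was highest at ZT8 and called at all 6 ZT. Cox7a2l had a mean of 0.02 ± 0.03 (SD, n = 6 ZT) and was called at no ZT.

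The muscle forms of complex IV did not move as one. Cox8b, the heart and muscle form of subunit VIII, stood in the authors' deposited tables at 0.22, 0.41, 0.25, 0.29, 0.21 and 0.33 from ZT0 to ZT20 and was called at each. Cox6a2, the heart and muscle form of subunit VIa, stood in the authors' deposited tables at -0.03, -0.32, -0.05, -0.15, -0.03 and -0.11. It was thus below 0 at all 6 ZT, with its lowest value at ZT4, the ZT where Cox8b was highest. The means were 0.28 ± 0.08 for Cox8b and -0.11 ± 0.11 for Cox6a2 (SD, n = 6 ZT), and the call of Cox6a2 was lost when limma took the spread between ZT as the error. Cox7a1, the muscle form of subunit VIIa, stood in the authors' deposited tables at 0.17, 0.23, 0.29, 0.17, 0.12 and 0.21 and was called at each ZT.

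Each of the 3 muscle forms was set against its widely expressed partner. Per kilobase of transcript, the mean normalized count of Cox6a2 was 39.5 times that of Cox6a1, that of Cox8b 32.9 times that of Cox8a, and that of Cox7a1 2.04 times that of Cox7a2. Cox6a1 stood in the authors' deposited tables at 0.05, -0.03, 0.29, -0.09, 0.29 and 0.09, and was called at ZT8 and ZT16. The muscle form lay below it at 6 of 6 ZT, by a mean of -0.21 ± 0.12 (SD, n = 6 ZT). Cox8a stood in the authors' deposited tables between -0.05 at ZT4 and 0.09 at ZT8 and was called at no ZT. Here the muscle form lay above its partner at 6 of 6 ZT, by 0.28 ± 0.11 (SD, n = 6 ZT). Cox8a had a mean normalized count of 113. Whether shrinkage of the RORA fold changes has a part in this difference was not tested. Cox7a2 stood in the authors' deposited tables at 0.01, 0.09, 0.13, 0.18, 0.05 and 0.13, below Cox7a1 at 5 of 6 ZT, with a mean difference of 0.10 ± 0.07 (SD, n = 6 ZT).

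The remaining pair sets the widely expressed Cox4i1 against Cox4i2, a form known from lung and low oxygen, whose mean normalized count of 14.0 is the lowest of all members. Cox4i1 stood in the authors' deposited tables at 0.23, 0.18, 0.26, 0.20, 0.16 and 0.22, and Cox4i2 at 0.10, 0.03, 0.40, 0.07, 0.03 and 0.03. Cox4i1 was above Cox4i2 at all ZT but ZT8, with a mean difference of 0.10 ± 0.12 (SD, n = 6 ZT). In an exact two-sided sign-flip permutation test over 6 ZT the smallest p is 0.03125, and the first and the third muscle pair reached it (Cox6a and Cox8). After Benjamini-Hochberg adjustment over the 8 tests of both sets this became 0.05, which is not under the threshold. Cox7a and Cox4i gave exact p values of 0.0625 and 0.0938, adjusted 0.0833 and 0.107.

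**Figure D2:**
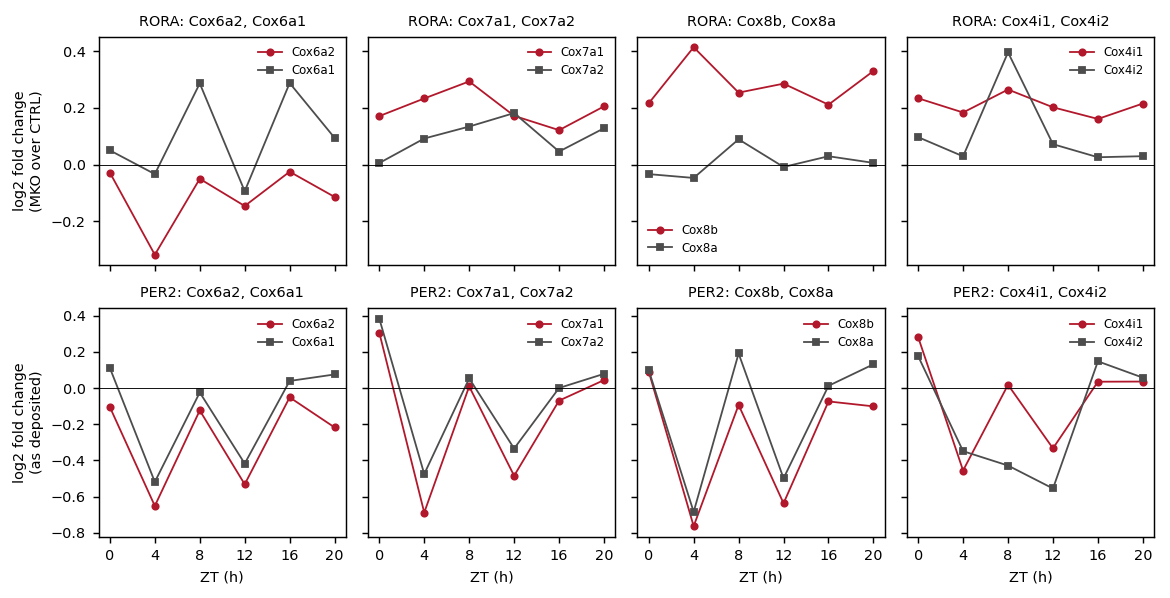
Log2 fold change against ZT in hours for the 4 pairs of complex IV forms, RORA tables in the top row (MKO over CTRL) and PER2 tables in the bottom row (as deposited). Circles stand for the first and squares for the second gene of each pair. In the RORA row Cox6a2 lies below Cox6a1 and Cox8b above Cox8a at 6 of 6 ZT, and in the PER2 row the muscle form lies below its partner at 6 of 6 ZT in each of the 3 muscle pairs.

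In complex V 15 of the 17 genes rose and 2 did not pass. The catalytic head holds Atp5b, the β subunit that makes ATP, and Atp5a1, the α subunit between the catalytic sites. They have the highest levels of all members. Atp5b stood in the authors' deposited tables at 0.31, 0.19, 0.33, 0.23, 0.24 and 0.23 from ZT0 to ZT20, and Atp5a1 at 0.25, 0.14, 0.22, 0.16, 0.13 and 0.15. Both were highest at ZT0 and ZT8, and both were called at all 6 ZT. The γ subunit Atp5c1, the shaft that turns inside the head, stood in the authors' deposited tables at 0.08, -0.0027, 0.11, 0.07, 0.06 and 0.01. Its mean was 0.05 ± 0.04 (SD, n = 6 ZT), the lowest of the members of complex V that passed, and limma did not call it. The foot of the shaft, Atp5d (δ) and Atp5e (ε), rose by 0.17 ± 0.06 and 0.12 ± 0.03 (SD, n = 6 ZT).

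The ring that turns in the membrane is built from the c subunit, and 3 genes, Atp5g1, Atp5g2 and Atp5g3, encode the same mature protein. They differed in their fold change. Atp5g1 stood in the authors' deposited tables at 0.36, 0.39, 0.42, 0.38, 0.24 and 0.33 from ZT0 to ZT20, the highest mean of all members at 0.35 ± 0.06 (SD, n = 6 ZT; adjusted p 3.17e-106 for the normal test). Atp5g3 stood in the authors' deposited tables at 0.30, 0.15, 0.36, 0.16, 0.24 and 0.23, with low values at ZT4 and ZT12 and a mean of 0.24 ± 0.08 (SD, n = 6 ZT). Atp5g2 stood in the authors' deposited tables at 0.07, 0.07, -0.06, 0.04, -0.02 and 0.05 and was called at no ZT. Its mean normalized count was 251, and whether shrinkage has a part in its low fold change was not tested. In level the order was another: per kilobase of transcript the mean normalized count was 5923 for Atp5g3, 3375 for Atp5g1 and 569 for Atp5g2.

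The stalk that keeps the head from turning rose as well. Its members Atp5o (the oligomycin sensitivity protein), Atp5h (subunit d), Atp5j (factor 6) and Atp5pb (subunit b) had means of 0.27 ± 0.04, 0.25 ± 0.05, 0.23 ± 0.04 and 0.19 ± 0.04 (SD, n = 6 ZT), and each was called at 6 of 6 ZT. Among the small membrane subunits, Atp5j2 (subunit f) stood in the authors' deposited tables at 0.12, 0.31, 0.21, 0.25, 0.13 and 0.23, low at ZT0 and ZT16. Atp5k (subunit e), which helps to pair the enzymes, rose by 0.18 ± 0.07 (SD, n = 6 ZT). Atp5md stood in the authors' deposited tables at 0.01, 0.17, 0.21, 0.21, 0.05 and 0.15, and Atp5mpl at 0.07, 0.16, 0.22, 0.26, 0.08 and 0.14. Both small proteins of the enzyme's membrane part were thus low, and not called, at ZT0 and ZT16. Atp5l (subunit g) had a mean of 0.03 ± 0.13 (SD, n = 6 ZT). Its level differs between the sets: 44.1% of genes lie below it in the RORA tables and 94.0% in the PER2 tables. How reads shared with pseudogene copies were counted is not given in the sources used here, so values of Atp5l are uncertain.

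The size of the RORA effect changed with ZT for 13 of the 44 genes, against 11.0% of all genes (Cochran's Q over the 6 ZT, adjusted p under 0.05). They were Sdha, Uqcrc2, Uqcrq, Cox5a, Cox6a2, Cox6b1, Atp5a1, Atp5b, Atp5c1, Atp5g3, Atp5j2, Atp5md and Atp5mpl. The smallest adjusted p by Cochran's Q was that of Cox5a, at 0.00012. Atp5c1 was the only one of the 13 with both signs among the 6 ZT, at a value near 0. The change was therefore one of size and not of direction. Of the 44 genes 25 were highest at ZT8 and 20 were lowest at ZT16, but the members share the libraries of a ZT, so these counts are not independent. The count fell to 8 without ZT4, to 6 without ZT8 and to 8 without ZT16. The 11.0% of all genes is for 6 ZT, and the share with a ZT left out is not given here. The smaller counts are thus not shown to exceed that of all genes.

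Marker genes of fibre type and of other cells also moved in the RORA tables. All 8 endothelial markers rose, with a median of 0.16, close to that of the respiratory genes. Of the 9 fast fibre markers 5 fell and 1 rose, with a median of -0.09. None of the 8 slow fibre markers passed on the mean over ZT, but their median was 0.69 at ZT0 and -0.25 at ZT4, and 3 changed with ZT. Of 5 red blood cell markers measured 2 rose, with a median of 0.18, and of 3 brown adipocyte markers measured 1 rose (Dio2). Ucp1, which defines brown adipocytes, did not pass on the mean. Its mean normalized count was near 0, at 3.25, and its fold change was 3.85 at ZT0. Values of the markers by group were not analysed here, and the part of these cells in the result was not tested.

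Other genes of the pathway were set beside the members. Of 39 complex I subunits 32 rose and 1 fell, with a median of 0.12. Of 34 measured assembly factors of complexes II to V 11 rose and 4 fell, with a median of 0.06. Uqcc1, which helps to build complex III, rose by 0.32 ± 0.06, and Taco1, which promotes translation of a mitochondrial subunit of complex IV, by 0.25 ± 0.10 (SD, n = 6 ZT). Coa5, an assembly factor of complex IV, and Sdhaf1, which helps to mature the iron-sulfur subunit of complex II, fell by 0.17 ± 0.05 and 0.13 ± 0.07 (SD, n = 6 ZT). Assembly factors thus moved in both directions. Of 16 regulators of respiratory genes 7 rose: the coactivators Ppargc1a (0.12 ± 0.15) and Ppargc1b (0.18 ± 0.11), the receptors Esrra (0.09 ± 0.06), Ppara (0.14 ± 0.15) and Ppard (0.17 ± 0.05), and the mitochondrial transcription proteins Tfam (0.10 ± 0.04) and Polrmt (0.11 ± 0.07; SD, n = 6 ZT). Of the 6 listed subunits encoded by mitochondrial DNA 2 had values in the RORA tables: mt-Cytb rose by 0.07 ± 0.10, and mt-Co1, at 0.03 ± 0.08, did not pass (SD, n = 6 ZT).

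The PER2 tables held another pattern, in which the sign of most members went with ZT, though 0 members passed for change with ZT (Cochran's Q, below). The deposited log2 fold change was positive for 41 of the 44 genes at ZT0, for 0 of 44 at ZT4 and for 1 of 44 at ZT12. The members' median was 0.15 at ZT0, -0.45 at ZT4 and -0.34 at ZT12. It was -0.05 to -0.02 at the remaining ZT, where the median of all genes lay between -0.01 and 0.00. The highest value was at ZT0 for 40 genes and the lowest at ZT4 for 42. As in the RORA set, members share the libraries of a ZT, so these counts are not independent. At ZT4, 16 genes were called by the adjusted p in the authors' deposited tables, all of them negative (6.76% of all genes), and 0 were at each other ZT. Few of all genes were called there either, in both directions together: between 0.81% (ZT16) and 3.34% (ZT12). The 0 counts are therefore not a trait shown for these genes alone. At an unadjusted p under 0.05 in the authors' deposited tables the counts were 2 at ZT0, 39 at ZT4, 24 at ZT12 and 0 at the other ZT. The shares of all genes were 11.7%, 30.0% and 17.4% at ZT0, ZT4 and ZT12. Where no member passed, they were 10.9% (ZT8), 6.32% (ZT16) and 8.85% (ZT20).

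The genes called at ZT4 span the 4 complexes. They were Sdhb in complex II, Uqcrc1, Uqcrfs1 and Uqcrh in complex III, Cox6a2, Cox7a2l and Cox8b in complex IV, and Atp5b, Atp5d, Atp5e, Atp5f1, Atp5g1, Atp5g3, Atp5h, Atp5j2 and Atp5o in complex V. The most negative was Cox8b, at -0.76 in the authors' deposited table for ZT4 (deposited adjusted p 0.036). The smallest adjusted p in the authors' deposited table for ZT4 was that of Atp5b, at 0.00283, with a fold change of -0.39.

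**Figure D3:**
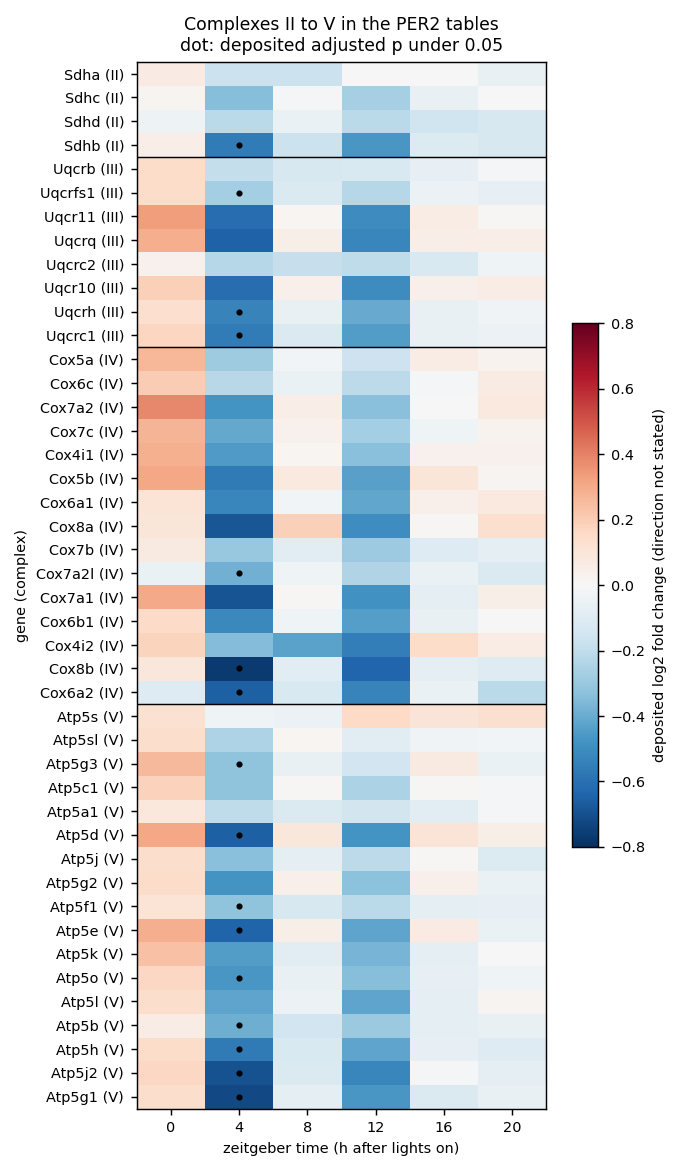
Deposited log2 fold change in the PER2 tables for the 44 genes (rows, by complex and then by mean) at each ZT in hours (columns), red for positive and blue for negative. Black dots mark a deposited adjusted p under 0.05, which are found at ZT4 alone. The columns of ZT4 and ZT12 are blue, with medians of -0.45 and -0.34, and that of ZT0 is mostly red, with a median of 0.15.

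Values by ZT are given for the lowest and the highest mean of each complex. Sdhb stood in the authors' deposited tables at 0.05, -0.56, -0.17, -0.47, -0.11 and -0.13 from ZT0 to ZT20, and Sdha at 0.07, -0.17, -0.17, -0.01, -0.01 and -0.06. In complex III, Uqcrc1 stood in the authors' deposited tables at 0.17, -0.56, -0.12, -0.45, -0.06 and -0.05, and Uqcrb at 0.15, -0.19, -0.13, -0.12, -0.06 and -0.01. All 4 were positive at ZT0 and negative at the other ZT. In complex IV, Cox6a2 stood in the authors' deposited tables at -0.11, -0.65, -0.12, -0.53, -0.05 and -0.22, and Cox5a at 0.26, -0.28, -0.02, -0.17, 0.06 and 0.03. Cox6a2 was thus negative at all 6 ZT, as were Sdhd and Cox7a2l among the other members. In complex V, Atp5g1 stood in the authors' deposited tables at 0.14, -0.72, -0.08, -0.47, -0.11 and -0.06, and Atp5s, which is no subunit of the enzyme, at 0.12, -0.04, -0.05, 0.16, 0.10 and 0.13. Atp5s was the 1 member with a positive value at ZT12.

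Means over the 6 ZT were tested by Stouffer's sum of signed z, with an adjusted p under 0.05 as the threshold. A positive mean passed for 0 members and for 1414 of all 12952 genes. A negative mean passed for 10 members, against 10.6% of all genes. They were Sdhb (-0.23 ± 0.23), Sdhd (-0.14 ± 0.08), Uqcrc1 (-0.18 ± 0.27), Uqcrc2 (-0.12 ± 0.10), Cox6a2 (-0.28 ± 0.25), Cox7a2l (-0.15 ± 0.14), Atp5b (-0.15 ± 0.16), Atp5f1 (-0.12 ± 0.15), Atp5g1 (-0.22 ± 0.32) and Atp5h (-0.19 ± 0.26; SD, n = 6 ZT). Sdhd stands out for its small spread and was negative at all 6 ZT, from -0.22 at ZT4 and ZT12 to -0.04 at ZT0 in the authors' deposited tables. The count rested on ZT4 and ZT12: it was 1 without ZT4 (Sdhd), 2 without ZT12 (Sdhd and Atp5b) and 0 without both, where 1 gene had an unadjusted p under 0.05 (22.1% of all genes). It was 18 without ZT0. The shares of all genes called with a ZT left out are not given here, so these counts have no background beside them. With limma, whose error is the spread between ZT, 0 genes passed, with 7 at an unadjusted p under 0.05 (25.4% of all genes). By Cochran's Q 0 members changed with ZT at an adjusted p under 0.05 (0.0463% of all genes), and 14 did at an unadjusted p under 0.05, as did 8.08% of all genes.

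These genes have short transcripts, and at ZT4 and ZT12 the PER2 fold changes went with transcript length over all genes. The members' median transcript length was 720.5 bases in the PER2 tables, against 2839 for all genes. At ZT4 a smooth trend on both length and GC content accounted for 29.5% of the spread of all fold changes (as variance), at ZT12 for 26.9%, and at no other ZT for more than 3.61%. With it removed, the members' median was 0.11 at ZT0, -0.18 at ZT4 and -0.15 at ZT12. No member was then called at any ZT, with 8 at an unadjusted p under 0.05 at ZT4 (17.4% of all genes) and 4 at ZT12 (10.7%). On the mean over ZT 2 were called (Atp5b and Uqcrc2), and the share of all genes called there is not given here. In the RORA tables the same removal left member medians of 0.12 to 0.22. Red blood cell markers in the PER2 tables also moved at these ZT, with medians of -1.35 at ZT4 and -1.01 at ZT12, and 5 of 5 measured passed on the mean, all negative. The part of these cells in the result was not tested.

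**Figure D4:**
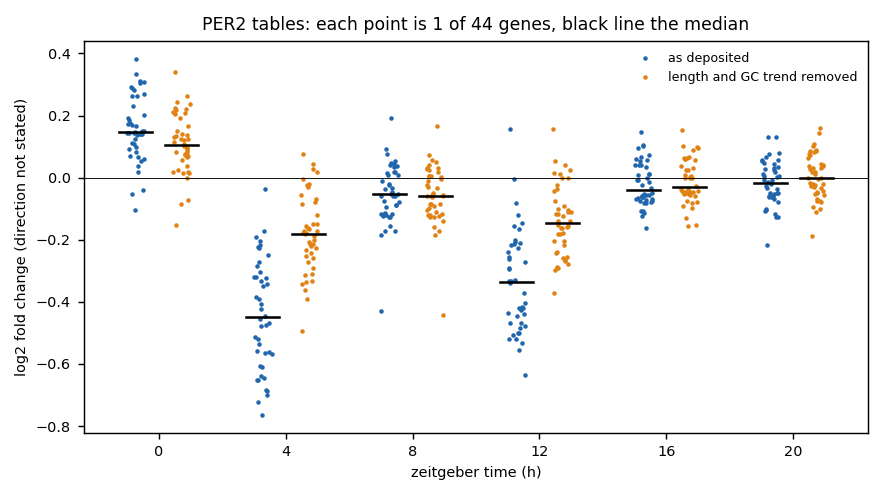
Log2 fold change of each of the 44 genes in the PER2 tables (points) at each ZT in hours, as deposited (blue) and after a trend on transcript length and GC content was removed (orange), with the median as a black line. The median at ZT4 moves from -0.45 to -0.18 and that at ZT12 from -0.34 to -0.15, while those at the other ZT move little.

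Complex I subunits followed the same course by ZT in the PER2 tables, with medians of 0.20 at ZT0, -0.50 at ZT4 and -0.33 at ZT12. On the mean over ZT 3 of 37 passed as negative, a share no higher than the 10.6% of all genes. A positive mean passed for 1 of 37, where 1414 of all 12952 genes did. Subunits encoded by mitochondrial DNA, all 6 of them with values, had medians of -0.08 at ZT4 and -0.05 at ZT12, and none passed by Stouffer's sum. Of the regulators, Ppargc1a alone passed, at 0.22 ± 0.24 (SD, n = 6 ZT). In the 3 muscle pairs of complex IV the muscle form was below its partner at 6 of 6 ZT: Cox6a2 by -0.16 ± 0.08, Cox7a1 by -0.10 ± 0.07 and Cox8b by -0.14 ± 0.10 (SD, n = 6 ZT). Each had the smallest exact sign-flip p of 0.03125, adjusted 0.05. Cox4i1 and Cox4i2 differed by 0.09 ± 0.22 (SD, n = 6 ZT; exact sign-flip permutation p 0.469). As deposited, the mean differences of the Cox7a and Cox8 pairs thus have opposite signs in the 2 sets and that of the Cox6a pair the same sign, but the order in MKO muscle follows only for RORA.

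The 2 sets have separate controls, and their means were compared for the 42 shared genes. The RORA fold changes look shrunken toward 0, and whether those of PER2 are is not given. A difference in size between the sets is therefore uncertain. With PER2 as deposited, 34 genes differed, all with the RORA mean above, against 20.6% of all genes (difference of the inverse-variance means over its error, adjusted p under 0.05). Since the PER2 direction is not stated, the test was repeated with the PER2 sign reversed. Then 7 of the 42 differed, against 19.1% of all genes: 6 with RORA above, all of them among the 34, and Cox6a2, which did not pass as deposited, with RORA below. Those that differed in both readings were 6 of the 42, a share near the 13.2% of all genes: Sdhd, Uqcrfs1, Atp5a1, Atp5b, Atp5g3 and Atp5j. For Sdhd the difference was 0.41 with an error of 0.04 as deposited and 0.14 with the sign reversed. For Atp5b, the β subunit, it was 0.41 with an error of 0.04 and 0.11 with the sign reversed. For Atp5g3 it was 0.28 and 0.20. The 8 genes not past the threshold as deposited (Atp5c1, Atp5g2, Atp5l, Cox4i2, Cox6a1, Cox6a2, Cox7a2 and Cox8a) had differences of 0.11 to 0.21. The count of genes that differed as deposited was 14 without ZT4 and ZT12, an alternative chosen after seeing the data, and 21 with limma. The shares of all matched genes under these alternatives are not given here. Across the 42 genes the means of the sets had a Pearson r of 0.02 and a Spearman rho of -0.12, as a description over genes that share libraries.

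**Figure D5:**
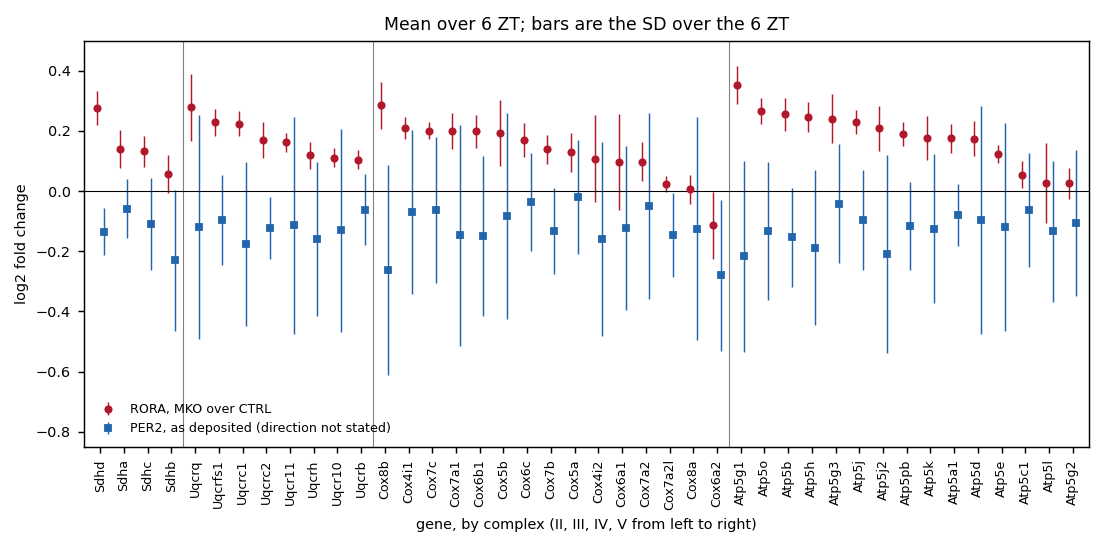
Mean log2 fold change over the 6 ZT for the 42 shared genes, by complex, for RORA (red circles, MKO over CTRL) and PER2 (blue squares, as deposited). Bars are the SD over the 6 ZT. RORA means lie above 0 for all genes but Cox6a2, from -0.11 to 0.35, and the PER2 means lie below 0 with wider bars.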

How the data were processed

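RNA was measured in 79 muscle libraries, stranded and poly-A selected per the labels' protocols. Per the submitters' processing notes, the tools were STAR, Trimmomatic, DESeq2, R 4.1, bcl2fastq 2.20.0.422 and MultiQC. The notes also list mm9 and GRCm39, without saying which served what. Which counter, strand setting and annotation were used is not given in the sources used here. The files hold the authors' comparisons only. Per the file headers, the deposited RORA tables give each gene's signal level (a mean normalized count), its log2 fold change and error, and raw and adjusted p-values. Per the labels the knockout is over the wild type, and genes needed 10 reads in 3 samples. Dividing the deposited log2 fold change by its error gave 0.779 of the z of its p (median), as shrinkage would. Per the file headers, the deposited PER2 tables give log2 fold changes, log2 CPM levels, likelihood ratio scores and raw and adjusted p-values, with no error and no direction.

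Calls at a ZT use the deposited adjusted p under 0.05. RORA means were tested by an inverse-variance weighted mean, PER2 means by Stouffer's sum of signed z from the deposited p, and change with ZT by Cochran's Q (5 degrees of freedom). PER2 errors were taken as the size of the fold change over its z. Printed means and SDs are plain values over the 6 ZT. The p-values of the tests over genes were adjusted by Benjamini-Hochberg over all genes of a set, or over the 12078 genes matched between the sets. Those of the isoform pairs were adjusted over the 8 tests of both sets. The statistics were tested on simulated normal values drawn with the errors used here. These values follow the model that the tests assume and hold no shrinkage, so behaviour under shrinkage was not tested. The trend was a spline fit with 5 degrees of freedom on log2 transcript length and GC content (GENCODE M21, used for lengths and names only), on genes of at least 50 mean normalized counts (RORA) or 1 CPM (PER2). Python 3.11.15, NumPy 2.4.6, pandas 2.3.3, SciPy 1.17.1, patsy 1.0.2, R 4.3.3 with limma 3.58.1 and matplotlib 3.10.9 were used. The members and lists were chosen with earlier results of these data known. Values by ZT are given for the highest and lowest mean of each complex in a set, the isoform pairs, genes whose effect changes with ZT, and called genes against the direction of their complex. Alternatives were another threshold, each ZT left out, other ways to combine ZT, limma, filters, centring and removal of the trend.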

Additional observations from a re-analysis of the deposited data

Results flagged for a closer look

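The effect of RORα loss differed between ZT, by Cochran's Q with adjustment over all genes, for 13 genes. The adjusted p was 0.00012 for Cox5a, 0.000331 for Atp5b, 0.000351 for Sdha, 0.000711 for Atp5g3 and 0.00300 for Cox6a2. It was 0.0124 for Atp5j2, 0.0162 for Uqcrc2, 0.0164 for Cox6b1, 0.0256 for Atp5md and for Atp5mpl, 0.0303 for Uqcrq, 0.0312 for Atp5c1 and 0.03996 for Atp5a1.

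The RORA and PER2 means differed for 34 of the 42 shared genes with PER2 as deposited. They differed whichever way the PER2 sign is read for 6 of the 42, a share near the 13.2% of all genes, with a difference of the weighted means, RORA minus PER2 as deposited, of 0.41 for Sdhd, 0.41 for Atp5b, 0.33 for Uqcrfs1, 0.32 for Atp5j, 0.28 for Atp5g3 and 0.25 for Atp5a1. As the RORA fold changes look shrunken toward 0, the sizes of these differences are uncertain.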

How the results depend on the processing

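With each ZT left out in turn, the RORA count on the mean went from 37 to 39 and kept its direction. Of the 38 called genes, Sdhb was lost without ZT0 and with the length and GC trend removed, and Sdhb, Atp5c1 and Cox6a2 were lost with limma. The number of RORA genes that changed with ZT went from 6 to 12 with each ZT left out. The PER2 calls at ZT4 went from 16 to 2 at a deposited adjusted p under 0.01. The PER2 count on the mean went from 1 to 18 with each ZT left out, and was 0 without ZT4 and ZT12, 0 with limma and 2 with the trend removed. The number of genes whose mean differed between the sets went from 23 to 36 with each ZT left out. It was 7 with the PER2 sign reversed, 21 with limma, and 14 without ZT4 and ZT12, an alternative added after seeing the data. The cause of these changes was not tested. The shares of all genes called with ZT left out, with limma or with the trend removed are not given here. No gene called on the mean changed sign under any alternative run. No paired analysis was possible because the tables hold comparisons, and their columns carry no library or replicate number. The labels of the RORA comparisons hold the word replicate, and whether the authors' fits used replicate as a term is not given. The depth of the libraries is unknown, and precision is that of the authors' errors and tests.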

Other observations

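Genes that the naming rule takes in 1 set only were followed under their other names. In the PER2 tables Usmg5 (Atp5md) averaged a deposited log2 value of -0.09 ± 0.19 and 2010107E04Rik (Atp5mpl) one of -0.12 ± 0.26 (SD, n = 6 ZT), and neither passed by Stouffer's sum. In the RORA tables Dmac2 (Atp5sl), an assembly factor of complex I, rose by 0.07 ± 0.10 (SD, n = 6 ZT; adjusted p 0.00579 for the normal test of the weighted mean).

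Transcript levels within one complex spanned a wide range. Per kilobase of transcript, the mean normalized count in the RORA tables was 13994 for Atp5b and 154 for Atp5l in complex V, and 3649 for Sdha and 854 for Sdhc in complex II. The level of Atp5l is uncertain, since it ranks far higher in the PER2 set. Next lowest in complex V was Atp5g2, at 569. Complex III was the most even, from 2689 for Uqcr11 to 4753 for Uqcrh.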
